A study of Mus musculus with 44 samples.

Results

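Transcripts of 10 chromatin remodeller genes (*Smarca2*, *Smarca4*, *Smarcc1*, *Smarcc2*, *Arid1a*, *Smarca5*, *Chd1*, *Chd4*, *Ino80* and *Hells*) were followed in single mouse 2-cell embryos. They were chosen by name, and each was found once among the 35269 genes of the deposited table. The 44 embryos came from natural C57Bl/6 matings and 6 litters, 2 per cross, and the study asked whether Dppa2 and Dppa4 supplied by the oocyte are needed when the embryonic genome is first transcribed. Crosses of control females with Dppa2/4+/+ males gave 14 Dppa2/4+/+ embryos (WT, with 10 and 4 embryos in the first and second litter). Females lacking both genes in the oocyte gave 15 Dppa2/4+/- embryos when mated with Dppa2/4+/+ males (HET1, 7 and 8 embryos). The same kind of female mated with Dppa2/4+/- males gave 5 Dppa2/4+/- embryos (HET2, 4 and 1) and 10 Dppa2/4-/- embryos (HOM, 3 and 7). The maternal allele was deleted in growing oocytes by Cre under the Zp3 promoter, across a conditional interval from *Dppa4* into *Dppa2*, so HET1, HET2 and HOM embryos all lacked the maternal supply. HET2 and HOM embryos share their litters and were told apart by the authors from their *Dppa2* and *Dppa4* transcripts, which therefore do not test these labels. Each WT and HET1 litter held embryos of 1 group only, and in comparisons with WT the effects of litter and genotype cannot be told apart.

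Chromatin remodellers use ATP to slide, evict or exchange nucleosomes, the protein spools on which DNA is wound. They fall into families named after their motor subunits. BAF complexes carry the motor *Smarca4* (Brg1) or its relative *Smarca2* (Brm), a scaffold made of *Smarcc1* and *Smarcc2*, and a large subunit such as *Arid1a*. *Smarca5* (Snf2h) is the motor of ISWI complexes, which space nucleosomes evenly. *Chd1* reads methylated lysine 4 of histone H3 at active genes, and *Chd4* is the motor of the NuRD complex, which joins remodelling to histone deacetylation. *Ino80* drives the INO80 complex, which acts on nucleosomes containing H2A.Z, and *Hells* (Lsh) helps to maintain DNA methylation. The oocyte stores remodeller transcripts, and maternal *Smarca4* is known to be needed for the 2-cell embryo to activate its genome normally. At this stage a transcript can be inherited from the oocyte or newly made, and RNA levels in whole embryos do not separate the 2 sources.

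Levels are log2 RPM as deposited, the log2 of reads scaled to the size of the library. Total reads per embryo ranged from 247667 to 3163026, with medians of 1770010 in WT, 528166 in HET1, 1108889 in HET2 and 803369 in HOM. A gene without reads holds the value of 0.9 read, which lies higher in shallow libraries, so for tests every value below 1.86, the highest such value in any embryo, was set to 1.86. Differences between groups are on this floored log2 scale, with a standard error (SE) from limma and a p-value adjusted by Benjamini-Hochberg over the 16412 genes with a mean of at least 0, and a gene was called when this was under 0.05. All 10 genes entered the test. *Dppa2*, the targeted gene, had a mean of 8.46 ± 0.55 (SD) in WT and 6.47 ± 1.02 in HET1, whose labels come from the crosses, and of 6.42 ± 1.54 in HET2 and 0.65 ± 1.15 in HOM, which were labelled by it. Marker lists were read beside the results. The log2 of the summed RPM of 18 maternal transcripts had a mean of 12.92 in WT (12.10 to 14.04), 13.66 in HET1 (12.26 to 14.72), 13.66 in HET2 (12.42 to 14.20) and 13.16 in HOM (12.45 to 13.96). The same sum over transcripts of genome activation had means of 10.93, 11.11, 11.01 and 10.94. Of 14 markers of cumulus and granulosa cells, *Amhr2* was read in 43 embryos, *Star* in 20, *Cyp19a1* in 16 (each of these 2 with up to 39 reads) and *Tnfaip6* in 10. The other 10 were read in 0 to 4 embryos each, among them *Fshr* in 0 and *Amh* in 1.

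Read per kilobase of merged exon, which allows genes to be compared, *Smarca5* was the most abundant of the 10 transcripts in WT, at a mean log2 RPM per kb of 6.61, followed by *Hells* at 4.93. *Chd1* (4.17), *Smarcc1* (3.99) and *Arid1a* (3.91) lay close together, and their embryos' ranges of log2 RPM were wider than these gaps. *Smarca4* (3.05), *Ino80* (2.64), *Smarca2* (2.16) and *Chd4* (1.60) were lower, and *Smarcc2* (-0.60) was lowest. Per embryo and not per length, *Smarca5* ranked 105 of the 16412 genes tested by mean log2 RPM over all embryos, *Arid1a* 449 and *Hells* 642, whereas *Smarcc2* ranked 9838. Exons of 5 of the 10 genes overlap those of another gene: *Smarcc1* with *Dhx30* on the other strand (123 bp), *Smarca2* with the antisense gene *4931403E22Rik* (40 bp), *Smarca5* with *Gm45872* (281 bp), *Smarca4* with *Gm27373* (99 bp) and *Chd4* with *Mir7045* (63 bp). Counting ignored strand, so reads in these stretches cannot be assigned to 1 gene.

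**Figure D1:**
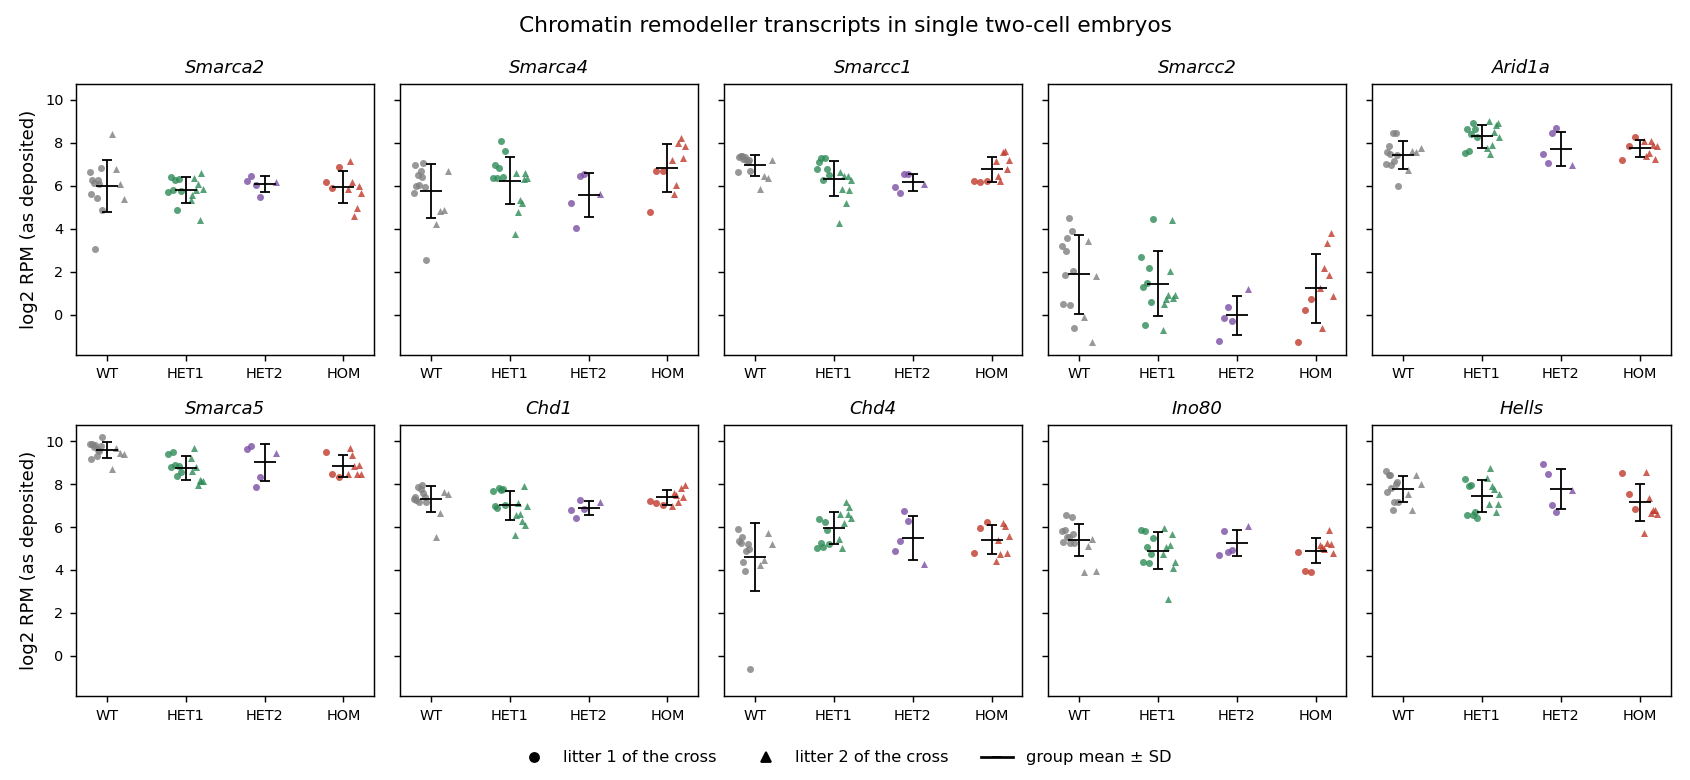
Deposited log2 RPM (vertical axes) of each remodeller gene in every embryo, by group (WT, HET1, HET2, HOM), with circles for the first and triangles for the second litter of a cross and bars for the group mean ± SD. The *Smarca5* points of WT centre on 9.57 and those of HET1 on 8.74, while *Chd4* has 1 WT embryo far below the rest at -0.60.

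Among the comparisons of groups, genes of the 10 were called only between HET1 and WT embryos. These embryos all received a paternal wild-type allele. They differ in maternal Dppa2/4 and also in zygotic genotype, Dppa2/4+/- against Dppa2/4+/+, and the 2 cannot be told apart here. *Arid1a* and *Chd4* were higher in HET1 embryos and *Smarca5* was lower, and the other 7 genes did not pass the test. The 3 called genes of 10 stand beside 4.54% of all genes called in this comparison, and beside 15.1% when only the 6919 genes with a mean of at least 3 were tested, where 9 of the 10 lie and 3 of them were called. By direction, 2.49% of all genes were called higher and 2.05% lower. The direction of the calls over all genes depended on the processing: 54.9% of the genes called were higher, and 39.6% when each embryo was re-centred on its median gene, 81.4% with voom on the reads, 86.5% with no floor and 14.7% without the first WT litter. The median difference of the 10 genes was -0.31, beside 0.05 over all genes tested.

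All 10 genes are protein-coding, and in GRCm38 *Arid1a* lies on chromosome 4 from 133679008 to 133756769, *Chd4* on chromosome 6 from 125095981 to 125130591 and *Smarca5* on chromosome 8 from 80698507 to 80739497. The DNA just upstream of these 3 genes is shown because they are the ones called, *Arid1a* and *Chd4* higher and *Smarca5* lower. Each run is the 200 bases before the gene's start in RefSeq (GRCm38.p6), 5′ to 3′ on the gene's strand, for *Arid1a* at chr4:133756770-133756969 (minus strand), *Chd4* at chr6:125095781-125095980 (plus strand) and *Smarca5* at chr8:80739498-80739697 (minus strand). Capitals mark the GC box, GGGCGG or its reverse CCGCCC.
Arid1a: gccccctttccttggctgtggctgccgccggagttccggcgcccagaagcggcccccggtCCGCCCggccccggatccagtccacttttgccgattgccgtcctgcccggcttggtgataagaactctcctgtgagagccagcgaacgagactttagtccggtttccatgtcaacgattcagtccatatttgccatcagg
Chd4: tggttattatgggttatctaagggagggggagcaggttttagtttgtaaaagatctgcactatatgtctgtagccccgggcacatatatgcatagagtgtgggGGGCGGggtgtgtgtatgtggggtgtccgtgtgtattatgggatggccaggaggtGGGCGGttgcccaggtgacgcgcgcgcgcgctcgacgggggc
Smarca5: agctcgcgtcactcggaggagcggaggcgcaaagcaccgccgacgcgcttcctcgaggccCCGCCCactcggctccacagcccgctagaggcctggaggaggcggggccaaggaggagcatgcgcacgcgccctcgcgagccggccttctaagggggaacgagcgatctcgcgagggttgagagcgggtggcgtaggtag
The GC box occurred once upstream of *Arid1a*, once upstream of *Smarca5* and 2 times upstream of *Chd4*, and 31% of 32851 RefSeq promoters hold it in a window of this length. Windows of 3 genes that were not called held 3 in *Smarca4*, 3 in *Ino80* and 0 in *Smarcc2*, so the GC box does not mark the called genes. The windows hold 16, 26 and 12 CpG dinucleotides in *Arid1a*, *Smarca5* and *Chd4*, and 22, 23 and 35 in *Smarca4*, *Ino80* and *Smarcc2*, which were not called. The median over all promoters was 5. CCAAT, the E-box CACGTG and TATAAA, searched on both strands, were in none of the 6 windows and occur in 29.3%, 5.26% and 9.96% of all promoters.

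*Smarca5*, the ISWI motor, ranged in WT from 8.68 through a median of 9.63 to 10.18, and in HET1 from 7.94 through 8.81 to 9.69. HET1 embryos were lower as a group although the ranges overlapped, and 14 of 15 lay below the WT mean. The difference was -0.83 (SE 0.20, adjusted p = 0.0099, limma), a 1.78-fold lower level. The 2 HET1 litters had means of 8.91 and 8.59, both below those of the 2 WT litters, 9.68 and 9.30. The other groups without maternal Dppa2/4, compared with the same WT embryos, were also lower without passing the test. HET2 embryos had values of 9.62, 9.79, 7.86, 8.32 and 9.45, so that 3 lay among the WT embryos and 2 below all of them, and the difference was -0.57 (SE 0.27, adjusted p = 0.57). HOM embryos ranged from 8.32 through 8.65 to 9.69, with 9 of 10 below the WT mean, and the difference was -0.73 (SE 0.22, adjusted p = 0.14). Without the first WT litter the HET2 and HOM differences were -0.29 and -0.46, and that of HET2 was -0.12 for its second litter alone, which holds 1 embryo.

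*Arid1a*, the large subunit that defines canonical BAF complexes, ranged in WT from 5.98 through a median of 7.51 to 8.48, and in HET1 from 7.48 through 8.41 to 9.03. All 15 HET1 embryos lay above the WT mean, while the ranges overlapped. The difference was 0.88 (SE 0.21, adjusted p = 0.012), a 1.84-fold higher level. Litter means were 8.28 and 8.34 in HET1 and 7.44 and 7.42 in WT. In HOM embryos the range was 7.18 through 7.86 to 8.25, inside that of WT, and the difference was 0.31 (SE 0.24, adjusted p = 0.57), which became -0.01 when embryos were re-centred on their median gene. The 5 HET2 values, 7.46, 7.06, 8.44, 8.69 and 6.95, all lay within or just above the WT range.

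*Chd4*, the NuRD motor, ranged in WT from -0.60 through a median of 5.09 to 5.90, and in HET1 from 5.01 through 6.17 to 7.18. All 15 HET1 embryos lay above the WT mean, and the upper end of WT overlapped with HET1. The difference was 1.18 (SE 0.32, adjusted p = 0.023), a 2.26-fold higher level. The lowest WT value belonged to the tenth WT embryo, which had no *Chd4* read among 1367153 reads, which allows up to 3 reads. That embryo also had the lowest WT values of *Smarca4* (2.55) and *Arid1a* (5.98) and the highest of *Smarca5* (10.18). Without it, 3 genes were still called, with differences of 0.95 for *Chd4* (adjusted p = 0.044), 0.77 for *Arid1a* (0.028) and -0.78 for *Smarca5* (0.022). HOM embryos had *Chd4* values from 4.43 through 5.49 to 6.22, with 9 of 10 above the WT mean and a difference of 0.63 (SE 0.35, adjusted p = 0.41). HET2 embryos had 4.88, 5.34, 6.75, 6.27 and 4.26, and the difference of 0.72 did not pass the test either (adjusted p = 0.70).

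These 3 calls depended on how litters were treated. With litter as a random effect no gene was called in the whole table, and *Smarca5*, *Arid1a* and *Chd4* had differences of -0.79, 0.88 and 1.15 with adjusted p-values of 0.33, 0.33 and 0.41. Leaving out the first WT litter gave -0.56, 0.89 and 1.06 (adjusted p = 0.50, 0.14 and 0.22), and leaving out the second HET1 litter gave -0.66, 0.85 and 0.79 (adjusted p = 0.15, 0.13 and 0.32). No gene of the 10 was called in either case. HET1 libraries were also the shallowest. The deepest HET1 embryos (1235893, 1417242, 1472913 and 1830316 reads) had the lowest *Arid1a* values of HET1 (7.51, 7.60, 7.78 and 7.48) and the highest of *Smarca5* (9.42, 9.51, 9.23 and 9.69). Their *Chd4* values were 5.02, 5.25, 5.44 and 5.01. WT medians of *Arid1a*, *Smarca5* and *Chd4* were 7.51, 9.63 and 5.09, and the shallowest WT embryo (637704 reads) had 7.56, 9.16 and 5.35. Summed maternal transcripts were highest in the second HET1 litter (14.23, against 13.001 in the first). The part of depth or of these transcripts in the calls was not tested.

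**Figure D2:**
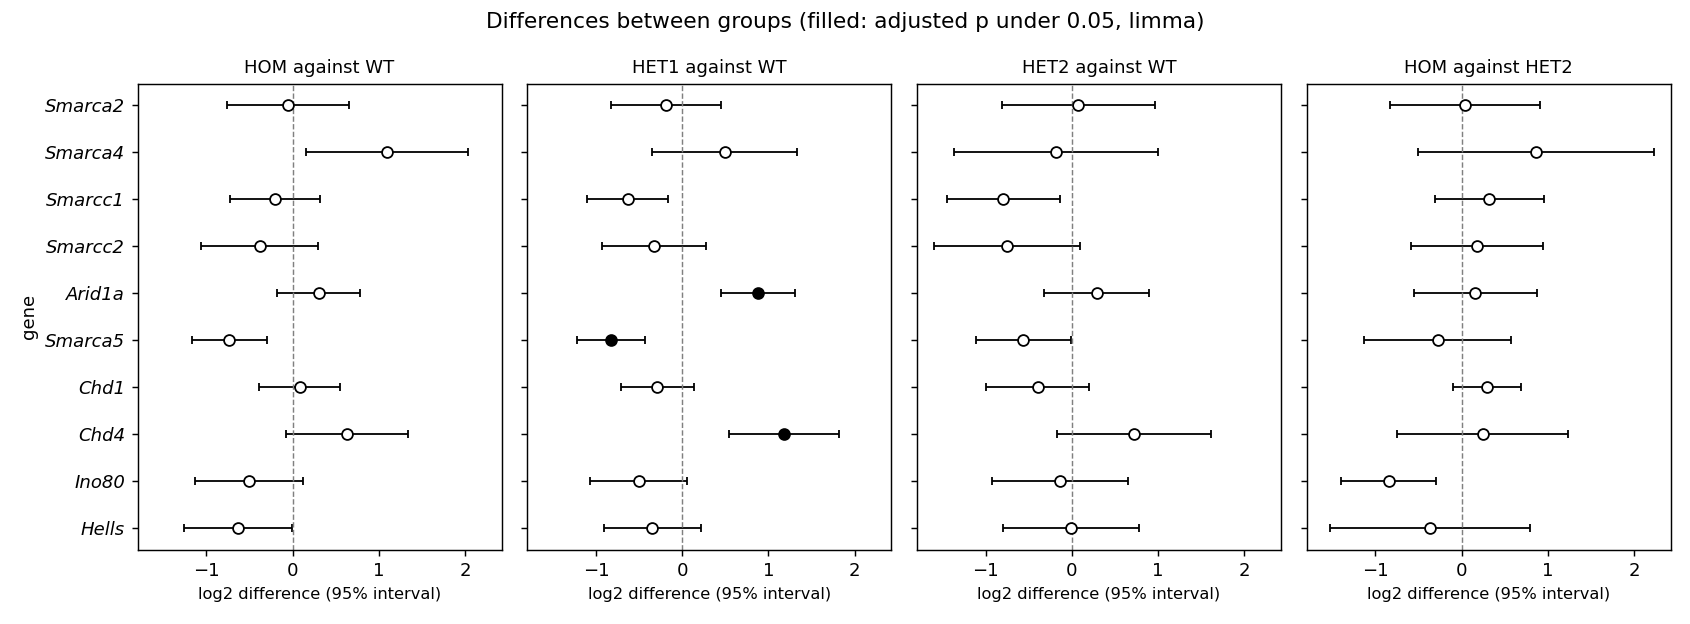
Log2 differences (horizontal axes) with 95% intervals from limma for the 10 genes in 4 comparisons, with filled points for adjusted p under 0.05. Filled points appear for *Smarca5*, *Arid1a* and *Chd4* in HET1 against WT only. Some open points have intervals that exclude 0. In HOM against WT these are *Smarca5* (-1.17 to -0.29), *Smarca4* (0.16 to 2.03) and *Hells* (-1.26 to -0.0067). The others are *Smarcc1* in HET1, *Smarcc1* and *Smarca5* in HET2, and *Ino80* in HOM against HET2.

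In HOM embryos, which lack Dppa2/4 from both parents, none of the 10 genes was called against WT, and 0.0183% of all genes were (3 genes, *Dppa2*, *Dppa4* and *Prr23a1*, named after their values were seen). At an unadjusted p under 0.05 limma counted 3 of the 10 and 14.5% of all genes (2379). Among genes with a mean of at least 3 it counted 3 of 9, beside 21.0% of all such genes. The median difference of the 10 genes was -0.13, beside 0.09 over all genes and 0.24 over those with a mean of at least 3.

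Among the BAF motors, *Smarca4* had the widest gap. It ranged in WT from 2.55 through a median of 6.01 to 7.07 and in HOM from 4.76 through 6.96 to 8.24, with 8 of 10 HOM embryos above the WT mean and overlapping ranges. The difference was 1.10 (SE 0.46, adjusted p = 0.27), and 0.85 without the tenth WT embryo. It rested on the second HOM litter, since the HOM litter means were 6.06 and 7.18 and the difference without that litter was 0.31 (adjusted p = 0.98). In HET1 it ranged from 3.76 through 6.38 to 8.09, a difference of 0.49 (SE 0.42, adjusted p = 0.55) whose sign turned without the first HET1 litter (-0.13). HET2 embryos had 5.21, 4.02, 6.45, 6.55 and 5.61, all within the WT range. *Smarca2*, the alternative motor, ranged from 3.04 through 6.12 to 8.43 in WT, from 4.39 through 5.78 to 6.58 in HET1 and from 4.61 through 5.95 to 7.15 in HOM. Both groups lay inside the WT range, with differences of -0.19 (adjusted p = 0.79) and -0.06 (0.99), and signs that turned when the second WT litter was left out (0.08 and 0.21). The 5 HET2 values lay between 5.47 and 6.44.

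The scaffold *Smarcc1* was the BAF gene with the tightest WT values, from 5.84 through a median of 7.20 to 7.41. HET1 embryos ranged from 4.25 through 6.44 to 7.28, with 12 of 15 below the WT mean, and the difference was -0.63 (SE 0.23, adjusted p = 0.11). This passed the threshold when embryos were re-centred (-0.82, adjusted p = 0.0054), without the second WT litter (-0.83, 0.041) and without the first HET1 litter (-1.10, 0.0029). It was -0.14 without the first WT litter (adjusted p = 0.94) and -0.10 without the second HET1 litter (0.89). All 5 HET2 embryos, at 5.95, 5.68, 6.56, 6.55 and 6.07, lay below the WT mean and their difference was -0.80 (SE 0.33, adjusted p = 0.48), or -0.30 without the first WT litter. HOM embryos ranged from 6.16 through 6.62 to 7.60, a difference of -0.20 (adjusted p = 0.75) that became 0.29 against the second WT litter alone. Its partner *Smarcc2* was scarcely read. The WT range was -1.28 through 1.95 to 4.50, 10 of 14 WT embryos held 3 reads or more, and 4 of 15 HET1, 1 of 5 HET2 and 4 of 10 HOM embryos did. Its floored differences of -0.33, -0.75 and -0.38 in HET1, HET2 and HOM (adjusted p = 0.58, 0.65 and 0.61) rest on these few reads.

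Within an embryo, scaling to library size cancels from the ratio of 2 related genes, which was taken per kilobase of exon. The log2 ratio of *Smarca4* to *Smarca2* had a mean of 0.90 in WT (-3.06 to 4.15), 1.58 in HET1 (-0.42 to 4.38), 0.64 in HET2 (-1.28 to 2.21) and 2.05 in HOM (-0.38 to 4.51). It was lowest in the 2 deepest libraries of HOM (-0.38 and -0.27) and of HET1 (-0.42 and -0.42). The deepest WT library had the highest WT ratio (4.15). A part of depth in the ratio was not tested. Per kilobase, *Smarca4* was the higher of the pair in 10 of 14 WT, 13 of 15 HET1, 4 of 5 HET2 and 8 of 10 HOM embryos, 35 of 44 in all. This depends on the exon lengths used. Without division by length it was the higher in 7 of 14 WT, 11 of 15 HET1, 2 of 5 HET2 and 6 of 10 HOM embryos, 26 of 44 in all. The ratio in HOM exceeded that in WT by 1.15, and the difference did not pass the threshold (two-sided permutation test of 100000 draws, p = 0.14 and, adjusted over the 6 tests of both pairs of relatives, 0.78), and with the first litter of the cross alone the difference was -0.011. *Smarcc1* exceeded *Smarcc2* per kilobase in all 44 embryos. *Smarcc2* was at the floor in 7 of 14 WT, 10 of 15 HET1, 5 of 5 HET2 and 6 of 10 HOM embryos, so the ratio there is only a lower bound. Its 3 differences from WT (0.18 in HOM, -0.31 in HET1 and -0.04 in HET2, adjusted p = 0.92, 0.88 and 0.92 in the same permutation tests) rest on these bounds and are not read. Transcripts of each pair share no identical stretch of 75 bases, the read length. Shorter trimmed reads and inexact matches were not examined.

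**Figure D3:**
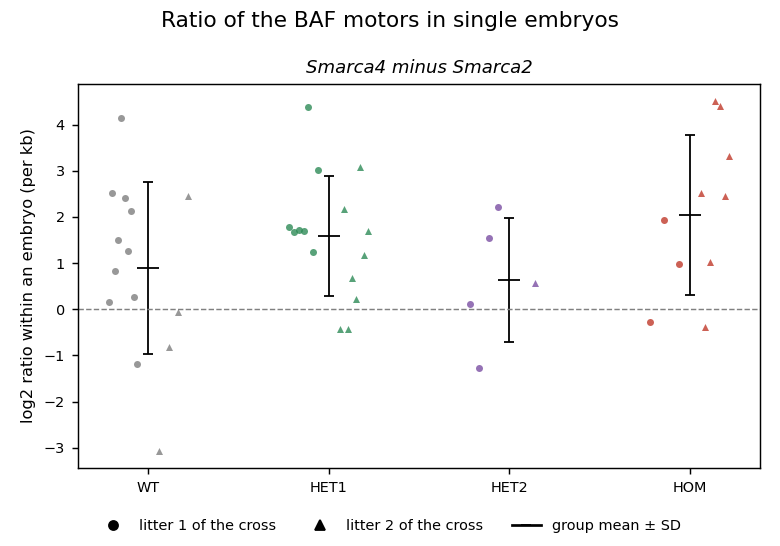
Log2 ratio of *Smarca4* to *Smarca2* per kilobase within each embryo (vertical axis), by group, with circles for the first and triangles for the second litter of a cross and bars for the group mean ± SD. Points above 0 are embryos with more *Smarca4* per kilobase, 35 of 44, and every group has at least 1 point below 0.

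*Chd1* ranged from 5.52 through a median of 7.39 to 7.94 in WT, from 5.65 through 6.99 to 7.90 in HET1, and from 6.98 through 7.31 to 7.98 in HOM. These ranges overlapped, and the differences were -0.29 (SE 0.21, adjusted p = 0.49) in HET1 and 0.08 (SE 0.23, adjusted p = 0.92) in HOM, the second of which became -0.23 after re-centring. HET2 embryos had 6.78, 6.42, 7.25, 6.86 and 7.18. *Ino80* ranged from 3.91 through 5.48 to 6.57 in WT, from 2.67 through 5.06 to 5.97 in HET1 and from 3.90 through 5.01 to 5.84 in HOM. Most HET1 and HOM embryos were in the lower part of the WT range, 9 of 10 HOM embryos being below the WT mean. The differences were both -0.51 (adjusted p = 0.33 and 0.46), and both became 0.30 against the second WT litter alone. *Hells* ranged from 6.77 through 7.89 to 8.61 in WT, from 6.42 through 7.54 to 8.74 in HET1 and from 5.72 through 6.82 to 8.57 in HOM. Here 8 of 10 HOM embryos lay below the WT mean, and the difference was -0.63 (SE 0.31, adjusted p = 0.34). It rested on the second HOM litter, since the HOM litter means were 7.64 and 6.93 and the difference without that litter was -0.14 (adjusted p = 1.00). That of HET1 was -0.35 (SE 0.28, adjusted p = 0.53), and -0.14 without the first HET1 litter. HET2 embryos had *Hells* values of 8.91, 8.45, 7.03, 6.70 and 7.74, on both sides of the WT mean.

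Against WT, none of the 10 genes was called in HET2 embryos either, where 0.0305% of all genes were (5 genes, *Dubr*, *Gm14325*, *Gm45205*, *Serinc1* and *Zfp813-ps*, named after their values were seen). An unadjusted p under 0.05 was found for 2 of the 10 and 8.52% of all genes (1399). With a mean of at least 3 it was found for 2 of 9, beside 12.2% of all such genes. These 3 comparisons share the WT embryos. HOM and HET2 embryos share mothers and litters and differ in the zygotic genotype, so litter entered the model for this comparison. None of the 10 was called, beside 0.0122% of all genes, which were *Dppa2* and *Dppa4*. An unadjusted p under 0.05 was found for 4.36% of all genes (715) and for 1 of the 10. That gene was *Ino80*, with 4.69, 5.81, 4.84, 4.95 and 6.03 in HET2 and 2 of 10 HOM embryos above the HET2 mean. Its difference was -0.85 (SE 0.25, adjusted p = 0.90). *Smarca4* differed by 0.86 (SE 0.63, adjusted p = 0.90), with a 95% interval of -0.50 to 2.23 that spans both directions.

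Litters of the same group differed in several of these genes, which sets a scale for the group differences. Between the HET1 litters, *Smarcc1* and *Chd1* were lower in the second, and these 2 of 10 stand beside 16.6% of all genes called (11.6% lower). When only genes with a mean of at least 3 were tested, 3 of the 10 and 35.5% of all such genes were called. *Smarcc1* had litter means of 6.86 and 5.86, a difference of -0.998 (SE 0.26, adjusted p = 0.0074). *Chd1* had 7.41 and 6.65, a difference of -0.76 (SE 0.26, adjusted p = 0.037) that missed the threshold with voom on the reads (adjusted p = 0.10). *Smarca4* had 6.95 and 5.62, a difference of -1.33 (SE 0.54, adjusted p = 0.089) that was called when only genes with a mean of at least 3 were tested (adjusted p = 0.034). Among genes with a mean of at least 3 the median difference between the HET1 litters was -0.38, so part of each value is shared by most such genes. After re-centring on the median gene *Smarcc1* was still called (-0.65, adjusted p = 0.035) and *Chd1* was not (-0.42, 0.26), and 50.3% of all genes called were higher in place of 29.9%. Between the WT litters none of the 10 was called, beside 2.55% of all genes. An unadjusted p under 0.05 was found for 14.8% of all genes (2425), for 20.9% of those with a mean of at least 3, and for 3 of the 10. The 3 were *Ino80*, with litter means of 5.73 and 4.598 (difference -1.13, SE 0.39, adjusted p = 0.11), *Smarcc1*, with 7.16 and 6.46 (-0.69, SE 0.30, 0.24), and *Chd1*, with 7.48 and 6.83 (-0.65, SE 0.30, 0.27). In the cross with Dppa2/4+/- males, *Ino80* was higher in the second litter, the only one of the 10 called, beside 3.41% of all genes (1.43% higher). Its litter means over HET2 and HOM together were 4.71 and 5.29, and the difference with genotype in the model was 0.96 (SE 0.24, adjusted p = 0.048). That call was lost under each of the 5 other ways of processing the values, which gave differences from 0.88 to 0.96. It was kept without HET2 embryo 2, of the first litter (adjusted p = 0.023) and lost without any other HET2 embryo of the first litter (0.065 to 0.069) and without the only one of the second litter (0.16), in whose absence 149 of all genes were called in place of 560.

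Signs of the litter differences were then set side by side over the 3 crosses, as a description. For *Smarcc1*, *Chd1*, *Smarca4*, *Ino80*, *Smarca5* and *Smarcc2* the difference was below 0 in WT and HET1 and above 0 in the cross with Dppa2/4+/- males, which is 6 of 10 genes beside 25% of all genes tested. The share was not counted over the 6919 genes with a mean of at least 3, where 9 of the 10 lie. Litter differences of those genes had correlations of 0.45 (WT and HET1), -0.44 (WT and HOM) and -0.76 (HET1 and HOM). The order of signs is therefore not shown to be particular to the 10 genes. Only 3 of these 18 differences passed the test, those of *Smarcc1* and *Chd1* in HET1 and of *Ino80* in the last cross. In that cross *Smarcc1*, *Chd1* and *Smarca4* differed by 0.55, 0.37 and 0.83 (adjusted p = 0.32, 0.28 and 0.50). *Smarca4* in WT and *Ino80* in HET1 were at -0.83 and -0.36. *Smarca5* was at -0.38, -0.32 and 0.22 in WT, HET1 and the last cross (adjusted p = 0.69, 0.47 and 0.83), and *Smarcc2*, near the floor, at -0.51, -0.20 and 0.38 (0.78, 0.86 and 0.60). *Chd4* had the opposite signs, at 0.17 in WT, 0.72 in HET1 and -0.67 in that cross (adjusted p = 1.00, 0.27 and 0.43), as did 19.4% of all genes. When embryos were re-centred on their median gene, 5 of the 6 kept the first order of signs (*Smarca5* did not), beside 20.9% of all genes, with *Ino80* at -0.02 in HET1, and 3 of the 10 (*Arid1a*, *Chd4* and *Smarca2*) had the opposite one, beside 23.7%. The summed maternal transcripts had the opposite order, as *Chd4* did. Their means were 12.81 and 13.22 in the first and second WT litter, 13.001 and 14.23 in HET1, 13.91 and 12.84 in HOM, and 13.97 in the 4 HET2 embryos of the first litter against 12.42 in the single one of the second. Whether the litters differed in developmental time or in RNA content was not tested, and the pattern was noticed after these values had been seen.

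**Figure D4:**
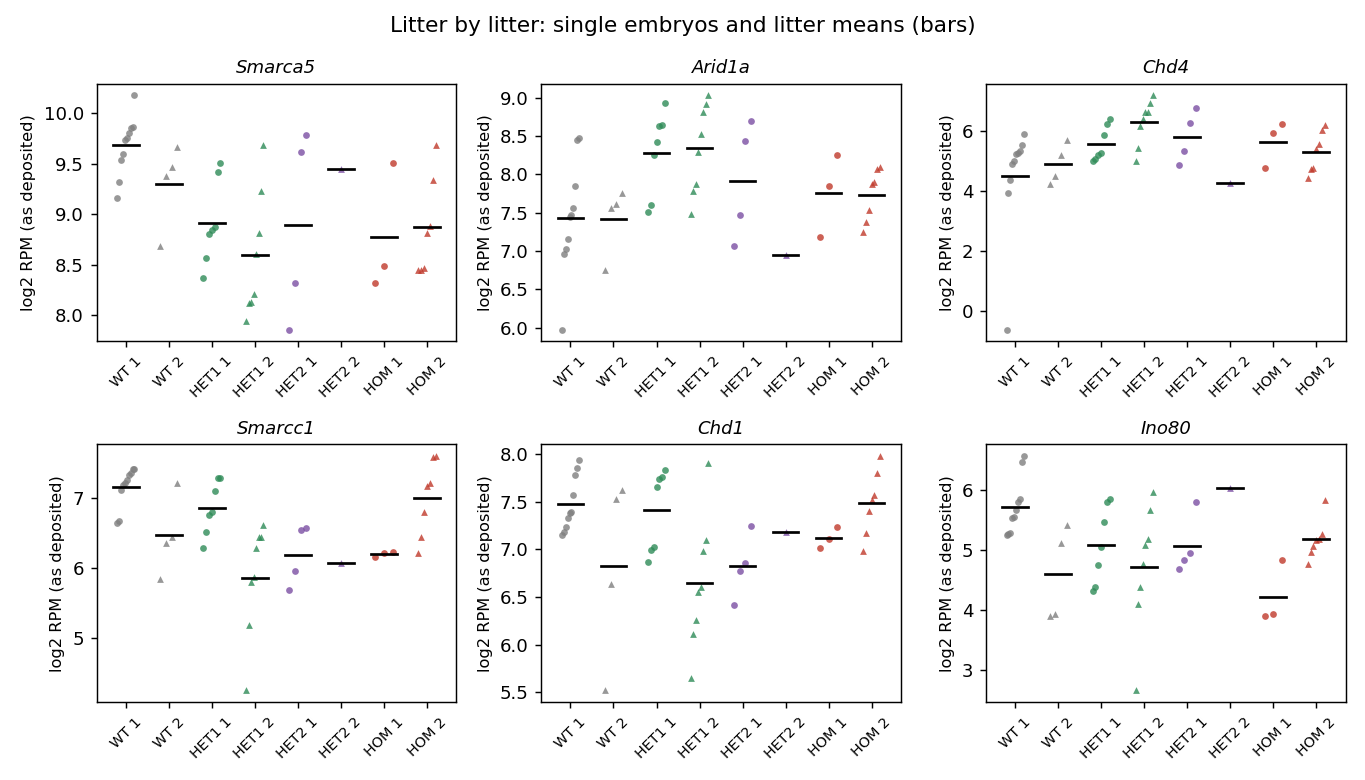
Deposited log2 RPM (vertical axes) of selected remodeller genes in single embryos, arranged by group and litter (1 or 2), with bars for litter means. The *Smarcc1* litter means fall from 7.16 to 6.46 in WT and from 6.86 to 5.86 in HET1 and lie at 6.195 and 6.999 in HOM.

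A wider list of 88 remodeller genes, subunits and relatives of the 10, was tested beside them, of which 86 entered the test. In HET1 against WT, 4 of the 86 were called, 3 higher and 1 lower, a share close to the 4.54% of all genes. When only genes with a mean of at least 3 were tested, 8 of 64 were called, beside 15.1%. *Bcl7c*, a BAF subunit, had a mean of 4.64 ± 1.82 (SD, n = 14) in WT and 6.62 ± 0.97 (n = 15) in HET1, a difference of 1.84 (SE 0.44, adjusted p = 0.012). *Gatad2a*, a NuRD subunit like the motor *Chd4*, rose from 7.26 ± 1.06 to 8.40 ± 0.77, a difference of 1.14 (SE 0.32, adjusted p = 0.032), and its call was lost without the tenth WT embryo (0.89, adjusted p = 0.059). *Ino80e*, a subunit of the INO80 complex, differed by 1.12 (SE 0.33, adjusted p = 0.038) while *Ino80* itself was not called, and this call too was lost without the tenth WT embryo (0.998, adjusted p = 0.080). It was also lost with voom on the reads (1.00, 0.058) and without the second WT litter (1.05, 0.082). *Btaf1*, an SNF2 protein that removes the TATA-binding protein from DNA, was lower, with a difference of -0.82 (SE 0.21, adjusted p = 0.018). Its difference was -0.42 without the first WT litter (adjusted p = 0.66) and -0.48 without the second HET1 litter (0.37). With litter as a random effect *Bcl7c*, *Gatad2a*, *Ino80e* and *Btaf1* differed by 1.89, 1.11, 1.15 and -0.76, with adjusted p-values from 0.31 to 0.46. In HOM embryos *Bcl7c* differed from WT by 1.81 (SE 0.49, adjusted p = 0.11), *Ino80e* by 1.43 (SE 0.36, 0.085), *Gatad2a* by 1.04 (SE 0.36, 0.18) and *Btaf1* by -0.44 (SE 0.24, 0.38), and none was called.

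By family, the HET1 calls were 1 higher of 21 tested BAF and PBAF genes, 0 of 9 ISWI genes, 1 higher of 19 CHD and NuRD genes, 1 higher of 21 genes of INO80, SRCAP and TIP60 complexes, and 1 lower of 16 other SNF2 proteins and *Hells* partners, where 2.49% of all genes were called higher and 2.05% lower. In HOM, HET2 and HOM against HET2, limma called 0 of 86, and 19, 7 and 4 had an unadjusted p under 0.05, beside 14.5%, 8.52% and 4.36% of all genes. Among the 64 with a mean of at least 3 there were 15, 7 and 2, beside 21.0%, 12.2% and 5.71% of all such genes. Median differences of the wider list were 0.13 in HET1 and 0.32 in HOM, beside 0.05 and 0.09 over all genes. Over its 64 genes with a mean of at least 3 they were 0.08 and 0.36, beside 0.098 and 0.24 over all such genes. Within the ISWI family, the partners *Cecr2* (9.03 in WT and 9.02 in HET1) and *Bptf* (8.16 and 8.38) were not called where the motor *Smarca5* was, with adjusted p-values of 1.00 and 0.53, nor was *Baz1a* (7.75 and 7.40, adjusted p = 0.18). The PBAF subunits *Arid2* (7.73 and 7.70), *Pbrm1* (6.42 and 5.82) and *Brd7* (5.91 and 6.55) had adjusted p-values of 0.96, 0.20 and 0.12. The NuRD subunit *Gatad2b* (7.78 and 7.54) had an adjusted p of 0.41. Among the INO80, SRCAP and TIP60 genes, *Ino80d* (7.20 and 7.44), the SRCAP motor *Srcap* (6.43 and 7.39) and the TIP60 motor *Ep400* (6.45 and 7.31) had adjusted p-values of 0.48, 0.23 and 0.060. The heterochromatin remodeller *Atrx* (9.56 and 9.08) had 0.17.

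Between the HET1 litters 21 of the 86 were called, 19 lower in the second litter and 2 higher. Those lower included 7 of 21 genes of INO80, SRCAP and TIP60 complexes, 5 of 19 of CHD and NuRD, 3 of 21 of BAF and PBAF, 2 of 9 of ISWI and 2 of 16 others, where 11.6% of all genes were called lower. When only genes with a mean of at least 3 were tested, 18 of 64 were called lower, beside 26.1% of all such genes. *Rad54l2*, an SNF2 protein, fell from a litter mean of 7.26 to 5.84 (difference -1.42, SE 0.42, adjusted p = 0.016), and *Baz1a*, an ISWI partner, from 7.74 to 7.11 (-0.63, SE 0.18, 0.016), a call that was lost after re-centring (-0.28, 0.37). *Rbbp7*, a histone-binding NuRD subunit, rose from 6.94 to 8.13 (1.19, SE 0.26, adjusted p = 0.0017).

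**Figure D5:**
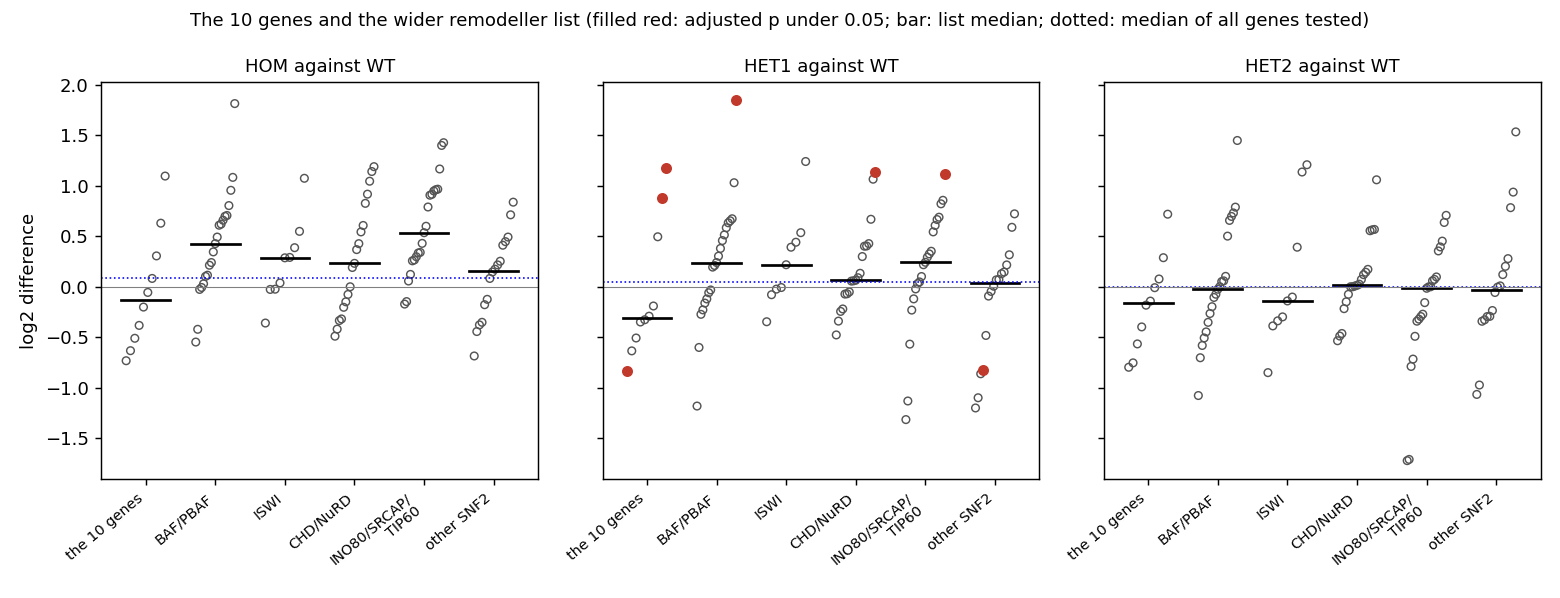
Log2 differences (vertical axes) of the 10 genes and of 5 wider remodeller families (horizontal positions), with each point a gene, red fill for adjusted p under 0.05, bars for list medians and a dotted line for the median of all genes tested. Red points are few in HET1 against WT (3 of the 10 and 4 of the 86 wider genes) and absent in HOM against WT.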

How the data were processed

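Polyadenylated RNA of single 2-cell embryos was sequenced after Smart-seq2 amplification. The authors trimmed reads (Trim Galore 0.6.5, cutadapt 2.3), aligned them with HISAT2 2.1.0 (GRCm38), discarded those with a MAPQ under 20 and counted them over mRNAs in SeqMonk, on both strands together. Values were deposited as log2 RPM, not divided by gene length. Whole reads were recovered from their steps (99.9997% of values within 0.05 read), and genes without reads hold 0.9 read. A count of 0 allows up to 3 reads. Such limits cover counting error only, because amplified reads were not collapsed to molecules.

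Groups and litters were taken from the labels. Values below 1.86 were set to 1.86, and genes with a mean of at least 0 (16412) were tested by limma 3.58.1 (R 4.3.3; lmFit, eBayes with trend, Benjamini-Hochberg at 0.05). All 4 groups entered 1 model, litters were compared in a model of 8 group-by-litter cells, and group plus litter were fitted to the 15 embryos of the cross with Dppa2/4+/- males. The test was tested on simulated data, and a gene that was not called is not shown to be unchanged. Paralog ratios were compared by two-sided permutation tests (100000 resamples, exact where a group had fewer than 10 embryos; scipy 1.17.1). Alternatives covered the floor, the filter, centring, limma voom on recovered reads, litter as a random effect or block, and leaving out litters or embryos. Leaving out the tenth WT embryo was chosen after seeing the data.

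The 10 genes and the lists were chosen with earlier results of these data known. Of the wider list, the text names the 3 genes of each family with the highest mean level and those called against WT. Coordinates and lengths come from the deposited table and GENCODE (GRCm38), and upstream sequences from RefSeq (GRCm38.p6), where 6 of the 10 genes had a window. Embryos of a litter share a mother, so p-values over embryos measure the spread between embryos and not between mothers. Figures were drawn with matplotlib 3.10.9.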

Additional observations from a re-analysis of the deposited data

How the results depend on the processing

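Of 753 recomputed differences of single genes, 669 kept their direction and side of the threshold, 43 lost a call, 5 gained one and 36 turned direction, and no difference that turned was called. Those that turned in HOM against WT were *Smarca2* (0.23 with voom, 0.21 without the second WT litter, 0.32 without the second litter of the cross with Dppa2/4+/- males), *Smarcc1* (0.29 without the first WT litter, 0.04 without the first litter of that cross), *Arid1a* (-0.0062 re-centred), *Chd1* (-0.23 re-centred, -0.10 without the second WT litter, -0.18 without the second litter of that cross) and *Ino80* (0.30 without the first WT litter). In HET1 they were *Smarca2* (0.079 without the second WT litter), *Smarca4* (-0.13 without the first HET1 litter), *Smarcc2*, *Chd1* and *Ino80* (0.037, 0.18 and 0.30 without the first WT litter) and *Chd1* (0.12 without the second HET1 litter). In HET2, where the main differences of *Smarca2*, *Smarca4*, *Ino80* and *Hells* were 0.077, -0.18, -0.14 and -0.0092, they were *Smarca2*, *Smarca4* and *Ino80* with litter as a random effect (-0.061, 0.0082 and 0.094), *Smarca2*, *Smarca4*, *Chd1*, *Ino80* and *Hells* without the first WT litter (-0.60, 0.41, 0.069, 0.66 and 0.084), *Arid1a*, *Chd4* and *Ino80* without the first litter of its cross (-0.48, -0.52 and 0.63), which leaves 1 HET2 embryo assumed to vary like the other groups, and *Hells* re-centred (0.024) and with voom (0.12). With single embryos left out, *Smarca2* ranged from -0.015 to 0.23, *Smarca4* from -0.43 to 0.20, *Ino80* from -0.33 to 0.0020 and *Hells* from -0.30 to 0.26. Between the HET1 litters it was *Smarca5* (0.026 re-centred).

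Of the 10 genes, 0 were called in HET1 with litter as a random effect, without the first WT litter and without the second HET1 litter. In the HET1 litters 1 was called with no common floor, after re-centring and with voom. In the cross with Dppa2/4+/- males 0 were called between litters with no floor, a mean of at least 3, no filter, re-centring and voom. Over all genes, HOM against WT gave 12 calls with no floor, 7 with a mean of at least 3, 9 with voom, 249 without the first WT litter, 5 without the first HET1 litter, and 80 and 41 without the first and second litter of its cross. HET1 against WT gave 4054 with no floor (3505 higher), 2520 with voom (2052 higher), 0 with the random effect, 285 without the first WT litter (42 higher), and 2339 and 6 without the first and second HET1 litter. HET2 against WT gave 2 with no floor, 1 with a mean of at least 3, 3 with no filter, 9 re-centred, 8 with voom, 0 with the random effect, 95 without the first WT litter, 29 without the second HET1 litter, and 80 and 24 without the first and second litter of its cross. Litters of WT gave 169 with a mean of at least 3 and 903 with voom, and those of the cross with Dppa2/4+/- males 970 with no floor, 1004 with a mean of at least 3 and 1091 with voom. Leaving out single embryos, the 5 HET2 embryos or the tenth WT embryo, gave 471 to 813 calls in HET1, 1 to 38 in HET2, 2 to 6 in HOM against HET2 and 149 to 539 between litters of the cross with Dppa2/4+/- males, where 0 to 1 of the 10 were called.

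The difference from WT in the ratio of *Smarca4* to *Smarca2* turned to 1.01 in HET2 without the first WT litter and to -0.011 in HOM without the second litter of its cross, and ranged from -0.65 to 0.22 in HET2 when single embryos were left out. That of *Smarcc1* to *Smarcc2*, a bound wherever *Smarcc2* is at the floor, turned in HET2 to 1.10 with no floor and to 0.089 without the first WT litter, in HET1 to 0.12 without the second HET1 litter and in HOM to -0.0105 without the second litter of its cross, and ranged from -0.14 to 0.076 in HET2 over single embryos left out. The causes were not tested.

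Mating numbers of different crosses name separate matings, and the labels do not say whether any animal was shared between crosses. Litter differences over 6919 genes had correlations of 0.45 (WT and HET1), -0.44 (WT and HOM) and -0.76 (HET1 and HOM). The mating number was not used as a pairing between crosses in the main tests. With the mating number as a replicate block, 3 of the 10 genes were called in HET1 and 0 in HOM and HET2, and 586, 3 and 7 of all genes. Without the litter block, HOM against HET2 gave 0 of the 10 and 2 of all genes. *Smarcc2* had the fewest reads of the 10 genes, and with 2 litters per cross a difference between groups can be read only beside that between litters.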
